A study of Mus musculus with 3 samples.

Results

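The proteases that cut extracellular matrix and cell-surface proteins, and the inhibitors that hold them in check, were followed through 10 genes. They are the matrix metalloproteinases Mmp8, Mmp9, Mmp12, Mmp13 and Mmp14, the membrane-bound disintegrin metalloproteinases Adam8, Adam10 and Adam17, and the tissue inhibitors of metalloproteinases Timp1 and Timp2. They were found by symbol in the transcript identifiers of the files, each symbol gave 1 gene, and they make up 10 of 55536 annotated genes.

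Matrix metalloproteinases are zinc enzymes made with a propeptide that keeps the zinc site closed until it is removed. Some are secreted and cut collagen, gelatin or elastin, whereas Mmp14 stays anchored in the plasma membrane. The ADAM proteases sit in the membrane and release the outer part of other membrane proteins, a process called shedding. ADAM17 was named for releasing tumour necrosis factor from macrophages, and TIMP proteins close the active site of metalloproteinases by binding it tightly.

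The RNA came from nuclei of C57BL/6J mouse macrophages that had been grown from bone marrow. The single group of 3 libraries had met lipid A, the part of bacterial endotoxin that Toll-like receptor 4 recognises, for 12 h at 100 ng/ml. After 12 h without lipid A the cells received 100 ng/ml once more, for 15 min. The labels name a nuclear fraction in some fields and a nucleoplasmic fraction in another, and the animals' sex and age were not collected. All libraries carry the same donor identifier, so p-values measure only the spread between these samples, which may be technical. Replicate 2 was made from 500 ng of RNA, the others from 1 µg each. No untreated library was analysed here, so no gene is called induced or repressed.

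Replicates 1, 2 and 3 held 23826101, 19312032 and 21730342 expected counts in annotated genes. The 10 genes took 0.0305%, 0.0238% and 0.0247% of TPM, a length-corrected transcript level that sums to a fixed total in each library. Nuclear-encoded protein-coding genes together held 19.9%, 22.2% and 20.6% of TPM. The cells carried macrophage markers: 10 of 10 were detected, meaning that each library gave 1 TPM or more, among them Lyz2 at 1616 ± 464 TPM and Adgre1 at 653.7 ± 199.0 TPM (SD, n = 3). Of 8 fibroblast markers and 11 granulocyte markers 0 were detected, and of 7 osteoclast markers 2 were, Nfatc1 at 8.83 ± 1.61 TPM and Acp5 at 5.64 ± 1.69 TPM.

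The catalytic site is what the 8 proteases have in common and what both inhibitors lack. In the coding sequence of each protease, read in frame from GENCODE M21, 1 stretch of 33 bases held a histidine codon, a glutamate codon, further histidine and glycine codons and a closing histidine codon at fixed places. The histidines of this stretch bind the catalytic zinc. Timp1 and Timp2 held 0 such stretches. The stretches are printed because each of the 8 proteases holds this site, with the histidine codons in capitals.
Mmp8: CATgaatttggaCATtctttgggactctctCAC
Mmp9: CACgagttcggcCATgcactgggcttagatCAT
Mmp12: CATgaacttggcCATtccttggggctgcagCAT
Mmp13: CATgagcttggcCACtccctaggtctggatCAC
Mmp14: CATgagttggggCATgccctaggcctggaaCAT
Adam8: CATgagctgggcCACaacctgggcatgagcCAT
Adam10: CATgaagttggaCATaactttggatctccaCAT
Adam17: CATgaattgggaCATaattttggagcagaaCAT
The search required the histidine, glutamate and glycine codons, so many of their bases are alike in every pair by construction. Identity was taken over the whole stretch with these bases included, which raises every percentage. Among the 10 pairs of Mmp genes the bases of this stretch were 60.6% to 75.8% identical, with a median of 68.2%. Among the 15 pairs of an Mmp with an Adam gene identity was 51.5% to 69.7%, with a median of 63.6%. The closest pair of all was Adam10 with Adam17, at 78.8%, whereas Adam8 matched each of them at 57.6%. For Mmp12 the stretch was read from transcript Mmp12-203, the protein-coding transcript with the highest mean TPM in RSEM format; in replicate 3 Mmp12-202 was higher, at 0.87 against 0.55 TPM, as it was by mean share in kallisto format.

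Nuclear RNA was abundant for the membrane-anchored proteases and for Timp2, low for the secreted collagenases and elastase, and close to the detection limit for Mmp9 and Timp1. Detection held for 7 of the 10 genes, all but Mmp8, Timp1 and Mmp9. On the authors' second table, in kallisto format, 5 of the 10 reached 1 TPM in every library, and Mmp12 and Mmp13 did not. Protein-coding genes of the nuclear genome held only 8.47%, 14.7% and 2.92% of TPM there, so 1 TPM is a higher bar in that table. Rescaled to the sum of those genes, Mmp12 had 22.2 TPM in kallisto format and 24.6 TPM in RSEM format, and Mmp13 had 13.3 and 16.1 TPM. The median of the mean TPM was 33.03 over the 7 detected genes and 12.7 over all 10, beside 8.63 over the 9434 detected protein-coding genes and 0.373 over all annotated protein-coding genes.

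**Figure D1:**
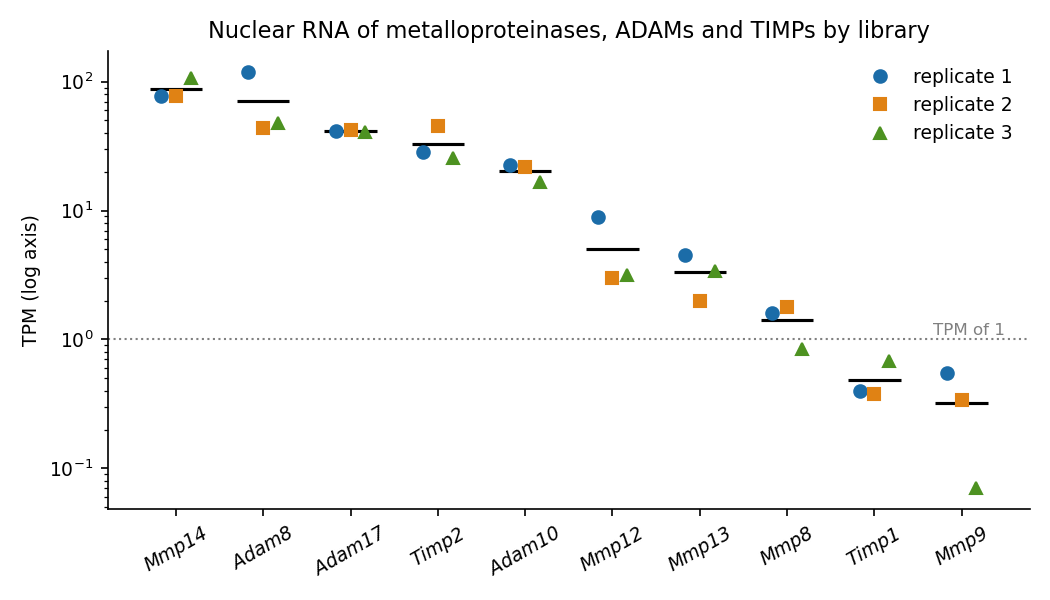
TPM of the 10 genes on a log axis, with 1 point for each replicate, a bar at the mean and a dotted line at a TPM of 1. Mmp14, Adam8, Adam17, Timp2 and Adam10 lie above 16 TPM in every library, and Timp1 and Mmp9 lie below 1 TPM in every library.

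Mmp14 encodes MT1-MMP, a membrane-anchored collagenase that also activates the pro-form of the gelatinase MMP2. It spans chr14:54431612-54445364 on the plus strand in mm10. Its nuclear RNA stood at 77.49, 77.70 and 107.30 TPM in replicates 1, 2 and 3, with 6281, 4395 and 7603 expected counts. The mean of 87.5 ± 17.2 TPM (SD, n = 3) was the highest of the 10 genes and exceeded 96.3% of detected protein-coding genes. Replicate 3 was the high library, and the other libraries were nearly equal in TPM. Rescaled to the sum of nuclear-encoded protein-coding genes, Mmp14 had 388.7, 350.5 and 520.0 TPM in replicates 1, 2 and 3, so replicate 2 was then the lowest.

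Mmp12 and Mmp13 were detected at low level. Mmp12 encodes the macrophage elastase, which degrades elastin and other matrix proteins, and lies at chr9:7344381-7369499 on the plus strand. It had 8.95, 2.99 and 3.19 TPM in replicates 1, 2 and 3, from 483, 107 and 159 expected counts. The mean was 5.04 ± 3.39 TPM (SD, n = 3), and replicate 1 stood well above both other libraries. Without replicate 1 the mean of Mmp12 was 3.09 TPM. That spread carried its percentile among detected protein-coding genes over a range of 14.5 to 53.1 between libraries.

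Mmp13 encodes collagenase 3, which cuts fibrillar collagen, at chr9:7272514-7283331 on the plus strand. Its levels were 4.52, 2.00 and 3.42 TPM in replicates 1, 2 and 3, from 405, 127 and 271 expected counts, with a mean of 3.31 ± 1.26 TPM (SD, n = 3). Replicate 2 was the low library. The levels of Mmp12 and Mmp13 overlapped.

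Mmp8 and Mmp9, the collagenase and the gelatinase best known from neutrophil granules, were near or under the limit. Mmp8, at chr9:7558456-7568485 on the plus strand, had 1.60, 1.77 and 0.85 TPM in replicates 1, 2 and 3, from 129, 101 and 61 expected counts. Its mean was 1.41 ± 0.490 TPM (SD, n = 3), and replicate 3 alone kept it from being called detected. Mmp9, at chr2:164940780-164955850 on the plus strand, had 0.55, 0.34 and 0.07 TPM from 59, 8 and 4 expected counts, with a mean of 0.320 ± 0.241 TPM, or 0.205 TPM without replicate 1. Exact Poisson 95% intervals, which cover counting error only, were 44.9 to 76.1, 3.45 to 15.8 and 1.09 to 10.2 counts, so the count in replicate 1 lay above the intervals of the other libraries. Most of the Mmp9 TPM of replicate 2 came from short transcripts. Mmp9-202, of 462 bases, had 0.13 TPM from 0.8 counts, and Mmp9-204, of 1125 bases, had 0.18 TPM from 4.19 counts. The coding Mmp9-201 had 0.04 TPM in replicate 2 and 0.55 TPM in replicate 1.

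Granulocyte markers were low in all libraries. Over the 11 markers the summed level was 3.94, 2.39 and 1.72 TPM in replicates 1, 2 and 3, and 3 markers, Ly6g, Elane and Retnlg, had 0 counts in every library. The excess of replicate 1 lay in S100a8, with 13, 3 and 4 expected counts, and S100a9, with 16, 4 and 4. Ngp had 11, 16 and 1 counts, Ltf 6, 8 and 10 and Mpo 3, 4 and 3, so these did not share that order. The part of such cells in the levels of Mmp8 and Mmp9 was not tested, and in bulk RNA fewer cells of a type and less RNA per cell cannot be told apart.

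All 3 ADAM genes were detected and high. Adam8, a protease of leukocytes that cuts adhesion molecules, lies at chr7:139978932-139992562 on the minus strand. It reached 119.61, 43.49 and 47.97 TPM in replicates 1, 2 and 3, from 11998, 3142 and 4208 expected counts. The mean was 70.4 ± 42.7 TPM (SD, n = 3), and replicate 1 was again apart from the other libraries; without it the mean was 45.7 TPM.

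Adam17, the main releasing enzyme for tumour necrosis factor and its receptors, lies at chr12:21323509-21373632 on the minus strand. It was the steadiest of the 10 genes, at 41.16, 42.50 and 40.98 TPM in replicates 1, 2 and 3. The mean was 41.55 ± 0.831 TPM (SD, n = 3), a coefficient of variation of 2.00%, and 90.1% of detected protein-coding genes were lower. Adam10, which sheds Notch receptors and many adhesion molecules, lies at chr9:70678997-70780229 on the plus strand and had 22.62, 21.72 and 16.74 TPM. Replicate 3 was the lowest library, and the mean of 20.4 ± 3.17 TPM exceeded 77.0% of detected protein-coding genes.

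The inhibitors stood far apart from each other. Timp2, which inhibits MMP14 and also bridges it to pro-MMP2 on the cell surface, lies at chr11:118301069-118355740 on the minus strand. It had 28.49, 44.91 and 25.70 TPM in replicates 1, 2 and 3, from 3412, 4060 and 2631 expected counts, with a mean of 33.03 ± 10.4 TPM (SD, n = 3). Replicate 2 was the high library. The gene Cep295nl lies within Timp2 on the same strand and had 132, 100 and 80 expected counts.

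Timp1, a secreted inhibitor of most soluble metalloproteinases, lies at chrX:20870166-20874735 on the plus strand. It had 0.40, 0.38 and 0.68 TPM in replicates 1, 2 and 3, with a mean of 0.487 ± 0.168 TPM (SD, n = 3). These levels came from 9, 6 and 15 expected counts, with exact Poisson 95% intervals of 4.12 to 17.1, 2.20 to 13.1 and 8.40 to 24.7 counts that all overlapped. The intervals cover counting error only and are not scaled to library size, so their overlap is no test of a difference between libraries. The whole gene lies within Syn1 on the opposite strand, with 4570 shared bases. Syn1 had 300, 190 and 184 expected counts. The overlap was taken from gene spans and not from exons, and the strand setting is not stated. Whether reads of Syn1 were counted for Timp1 was not tested.

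Ranked by mean TPM the order was Mmp14, Adam8, Adam17, Timp2, Adam10, Mmp12, Mmp13, Mmp8, Timp1 and Mmp9. Of the 9 pairs of neighbours in this order, 5 kept their order in all 3 libraries and 4 did not. The neighbours that overlapped were Mmp14 with Adam8, Adam17 with Timp2, Mmp12 with Mmp13, and Timp1 with Mmp9. The widest step between neighbours was Adam10 over Mmp12, at 1.95 ± 0.64 on the log2(TPM + 1) scale (SD, n = 3). With 3 libraries the exact two-sided sign-flip test cannot give a p below 0.25, so no step could pass the threshold of 0.05.

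Each protease was set beside 1 chosen inhibitor gene. Mmp14 was above Timp2 and Mmp12 above Timp1 in every library, and Mmp9 was not above Timp1 in every library. The choice of inhibitor matters: Timp2, at 28.49, 44.91 and 25.70 TPM in replicates 1, 2 and 3, was above Mmp12, at 8.95, 2.99 and 3.19 TPM. It was also above Mmp8, Mmp9 and Mmp13 in every library. Mmp14 exceeded Timp2 by 1.41, 0.78 and 2.02 (log2) in replicates 1, 2 and 3, a mean of 1.40 ± 0.62, positive in 3 of 3 libraries; the exact sign-flip p was 0.25, or 0.333 adjusted over the 4 pairs. The difference was smallest in replicate 2, where Timp2 was high. Mmp12 exceeded Timp1 by 2.83, 1.53 and 1.32, a mean of 1.89 ± 0.82, in 3 of 3 libraries with the same exact p of 0.25. Mmp9 minus Timp1 was 0.15, -0.04 and -0.65, a mean of -0.18 ± 0.42, positive in 1 of 3 libraries with an exact p of 0.75. The difference of Mmp14 and Timp2 was 0.84 on expected counts scaled to library totals, and that of Mmp12 and Timp1 was 1.00 on kallisto-format TPM and 2.98 with a pseudocount of 0.1. The sign of Mmp9 minus Timp1 does not hold: the mean was 0.31 on expected counts scaled to library totals and 0.052 without replicate 3. The sheddases also kept their order: Adam17 exceeded Adam10 by 0.84, 0.94 and 1.24, a mean of 1.00 ± 0.21, in 3 of 3 libraries with an exact p of 0.25. These are levels of nuclear RNA per length and do not measure protein.

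On the log2(TPM + 1) scale Adam8, Mmp12 and Mmp13 varied most between the libraries, and Adam17 hardly at all. That scale flattens low genes: by the coefficient of variation of TPM, Mmp9 came first at 75.2%, ahead of Mmp12 at 67.1%, Adam8 at 60.7% and Mmp13 at 38.1%. The median SD of log2(TPM + 1) was 0.29 over the 10 genes, beside 0.20 over the 9863 nuclear-encoded protein-coding genes whose mean reached 1 TPM, and 8 of the 10 lay above that median. The 10 genes were not filtered in that way: Mmp9 and Timp1, with means of 0.320 and 0.487 TPM, would fall outside that background. Only 0.649% of those genes had a larger SD than Adam8 and 0.872% a larger SD than Mmp12. For Mmp13 the share was 6.82%, for Timp2 8.60%, for Mmp8 21.4%, for Mmp9 30.9%, for Mmp14 31.4%, for Adam10 43.9% and for Timp1 66.3%. For Adam17 it was 98.7%, so nearly every other gene varied more.

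Each library was then set against the other 2 with edgeR's quasi-likelihood test on rounded expected counts, with Benjamini-Hochberg adjustment over 14350 genes. The lone library has no spread of its own in such a comparison and is assumed to vary like the other pair, so the p-values set libraries of 1 group against each other and are no test of a condition. Mmp9 and Timp1 fell under the filter on low counts, and of the other 8 genes 0 passed an adjusted p of 0.05 in any of the 3 comparisons. The background of genes called was 0.202% for replicate 1, 0% for replicate 2 and 0.00697% for replicate 3, from 29, 0 and 1 genes. Without adjustment, 2, 2 and 0 of the 8 genes had p under 0.05, among 882, 877 and 536 genes in all.

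Among the 8 genes the largest log2 differences were those of Mmp12 and Adam8 in replicate 1. The difference of Adam8 was 1.47 ± 0.27 (log2, SE), with an edgeR adjusted p of 0.0564. For Mmp12 it was 1.63 ± 0.34, with an edgeR adjusted p of 0.0890. Both missed the threshold, and the call for Adam8 depended on the tool: DESeq2 gave an adjusted p of 0.00195 for the same difference, with 0.581% of genes called. An edgeR fit with robust dispersion, added after the data were seen, gave 0.0309 for Adam8, with 0.341% of genes called. For Mmp12 DESeq2 gave 0.0517 and the robust edgeR fit 0.0548. Other settings moved further from a call. In edgeR with the size factors of DESeq2, Adam8 and Mmp12 differed by 1.47 and 1.62 (log2) and neither passed. Without the filter on low counts they differed by 1.48 and 1.63 and again neither passed. The summed level of the 10 macrophage markers was also highest in replicate 1, at 3697 TPM, against 3161 and 2423 TPM in replicates 2 and 3, and its part in these differences was not tested.

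**Figure D2:**
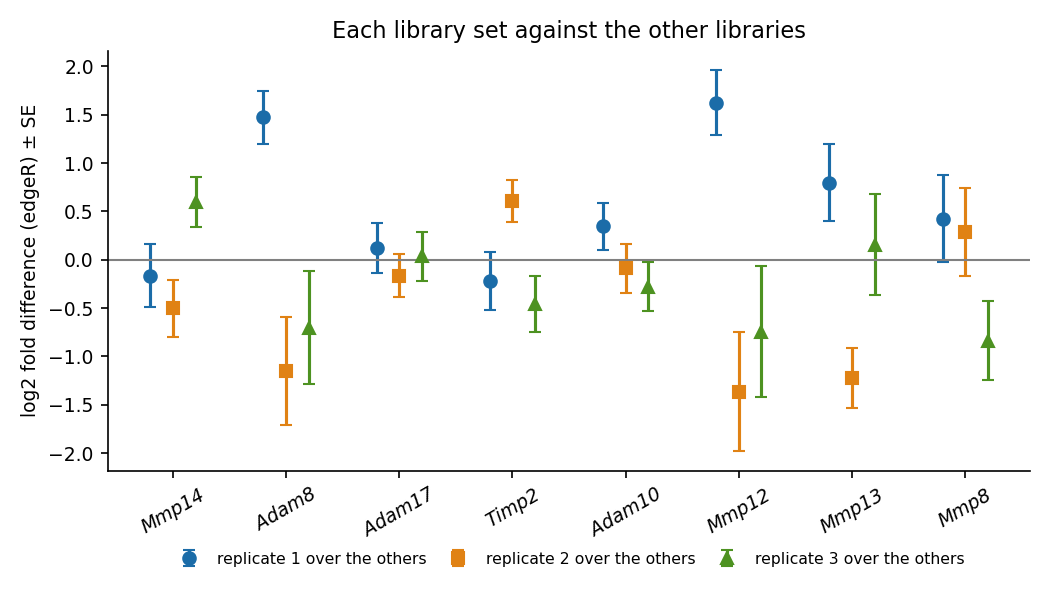
The log2 fold difference of each replicate over the other 2, with its SE, from the edgeR fit for the 8 genes tested. Adam8 and Mmp12 stand highest in replicate 1, at 1.47 and 1.63, and the 3 values of Adam17 lie within 0.2 of 0.

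In replicate 2, the difference was -1.22 ± 0.31 for Mmp13 and 0.61 ± 0.21 for Timp2 (log2, SE), each with an edgeR adjusted p of 0.773. Replicate 2 was also the library with the smaller RNA input, so input and culture cannot be told apart there. When genes with low counts were kept in the edgeR fit, all 10 genes could be tested. For Adam8 replicates 2 and 3 were close, at 43.49 and 47.97 TPM, and replicate 1 was high, at 119.61 TPM. For Mmp12 they were also close, at 2.99 and 3.19 TPM, beside 8.95 TPM in replicate 1. A difference of replicate 2 from the other 2 libraries thus mostly restates, for these genes, that replicate 1 was high. Mmp12, Mmp13 and Adam8 passed the threshold as lower in replicate 2, with log2 differences of -1.38, -1.24 and -1.16 and adjusted p of 0.00421, 0.0123 and 0.0119. That fit called 349 genes, 1.44% of those tested, against 0 genes with the filter. For replicates 1 and 3 it called 0% and 0.662% of genes and 0 of the 10. The largest differences there were those of Mmp9, at 3.04 ± 0.615 in replicate 1 and -2.88 ± 0.833 in replicate 3 (log2, SE), with edgeR adjusted p of 0.559 and 0.0756. In replicate 3 Mmp14 differed by 0.60 and Mmp8 by -0.84 (log2), each with an edgeR adjusted p of 1.

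Transcript classes showed how far the nuclear signal of each gene came from annotated coding transcripts. A retained-intron transcript is an annotated form that keeps an intron and encodes no protein. Such forms are annotated for 6 of the 10 genes, 5 of them detected. They took 18.9% ± 1.54 of the TPM of Adam8, 15.3% ± 1.44 of Adam17 and 14.2% ± 1.20 of Mmp14 (SD, n = 3). Adam10 and Mmp12 had little of it, at 3.37% ± 0.179 and 1.87% ± 0.994. Over the 5980 detected protein-coding genes that have such a transcript the median share was 23.9%, so all 5 lay below it, with Adam8 above 38.8% of those genes and Adam10 above 4.90%. Counted by expected counts rather than TPM, the shares were 15.3% for Adam8, 8.48% for Adam17 and 7.11% for Mmp14. The share of Mmp12 was 35.9% in the kallisto-format table, so for this gene it rests on the quantification.

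The single-exon transcript Mmp14-205, which covers the first part of the gene from 54431718 to 54433265, held most of the retained-intron share of Mmp14, at 10.1% ± 1.40 of TPM. The spliced Mmp14-201 held 84.0% ± 1.77. Adam10 was nearly all Adam10-201, at 96.6% ± 0.179, and Timp2 mostly Timp2-201, at 94.2% ± 5.33, or 78.3% in the kallisto-format table. Adam8 was shared between Adam8-201 at 49.5% ± 7.40 and Adam8-202 at 31.2% ± 6.68, which start close to each other. Adam17-201 led Adam17 at 76.0% ± 4.64, but only 45.7% in the kallisto-format table, so the split between its similar isoforms depends on the quantification. Mmp8 and Mmp13 have 1 annotated transcript each.

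**Figure D3:**
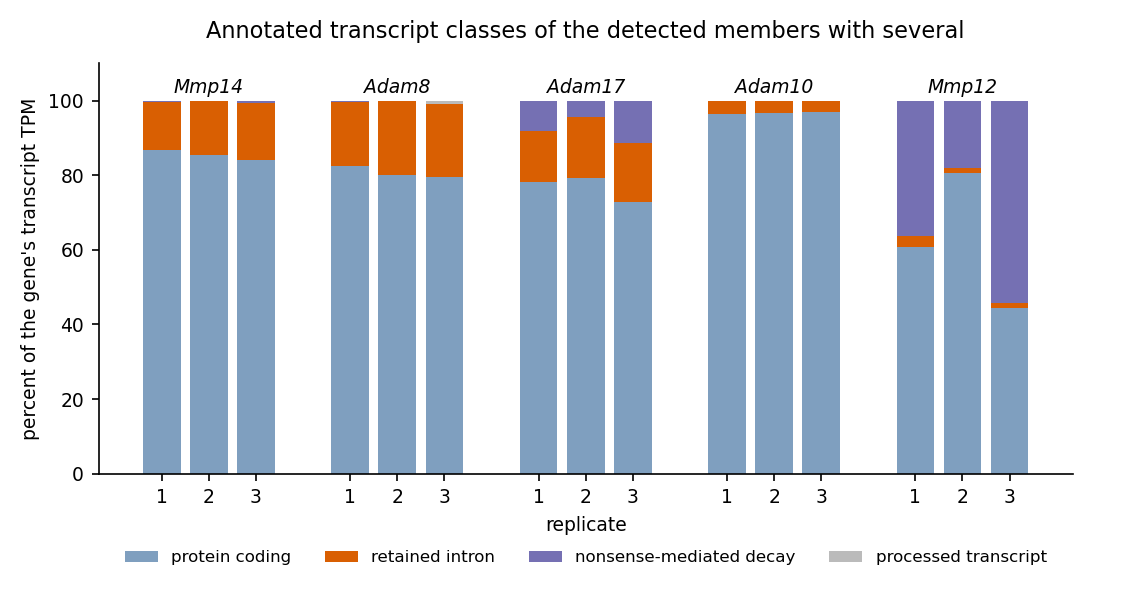
Percent of each gene's transcript TPM in each annotated transcript class, with 1 bar for each replicate, for the detected genes that have several classes. The bars of Mmp14, Adam8 and Adam10 are alike in all replicates, whereas the nonsense-mediated decay class of Mmp12 runs between 18.1% and 54.4%.

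Among the detected genes Mmp12 was the one whose isoforms moved most between libraries. Transcript Mmp12-204, annotated as a target of nonsense-mediated decay, took 36.3%, 18.1% and 54.4% of its TPM in replicates 1, 2 and 3. The annotation places Mmp12 transcripts at an upstream and a downstream start. The outermost upstream transcript, Mmp12-207 with 0 TPM, begins at 7344381, 2993 bases before the first downstream ones at 7347374. Mmp12-203 begins at 7344397. Transcripts from the upstream start, in effect Mmp12-203, took 32.8% of TPM in replicate 1, 51.5% in replicate 2 and 17.2% in replicate 3, a mean of 33.8% ± 17.2 (SD, n = 3). The kallisto-format table gave 24.1%, 16.1% and 4.17%, with another order of the libraries, so the share of the upstream start is not settled by these files. Replicates 2 and 3 rest on 107 and 159 expected counts for the whole gene.

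The 250 bases before the start of transcription, from RefSeq on GRCm38.p6 (the assembly of mm10), are printed for both starts of Mmp12, for Mmp13 and Adam8, which varied most beside it on the log2(TPM + 1) scale, and for Adam17, the steadiest gene. Windows were matched for 9 of the 10 genes, all but Mmp9, and number 10 because Mmp12 has both starts. Both strands were searched for the AP-1 motif TGANTCA and the TATA motif TATAAA, which do not overlap in these windows, and matches are in capitals.
Mmp12, upstream start, chr9:7344147-7344396, plus strand: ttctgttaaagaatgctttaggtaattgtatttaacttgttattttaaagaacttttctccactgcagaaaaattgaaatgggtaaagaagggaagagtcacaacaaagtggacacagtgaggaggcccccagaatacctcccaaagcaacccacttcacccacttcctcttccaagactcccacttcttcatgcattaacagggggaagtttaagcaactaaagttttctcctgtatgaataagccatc
Mmp12, downstream start, chr9:7347124-7347373, plus strand: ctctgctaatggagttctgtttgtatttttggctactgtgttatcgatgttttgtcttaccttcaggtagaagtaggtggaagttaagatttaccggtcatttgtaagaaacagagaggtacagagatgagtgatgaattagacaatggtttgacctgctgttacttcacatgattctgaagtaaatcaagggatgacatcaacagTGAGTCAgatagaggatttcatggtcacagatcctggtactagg
Mmp13, chr9:7272264-7272513, plus strand: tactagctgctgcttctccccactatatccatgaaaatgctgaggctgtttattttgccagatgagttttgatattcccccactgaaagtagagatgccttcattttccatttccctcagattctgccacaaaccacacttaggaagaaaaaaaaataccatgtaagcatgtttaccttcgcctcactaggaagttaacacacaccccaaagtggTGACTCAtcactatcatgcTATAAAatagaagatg
Adam8, chr7:139992563-139992812, minus strand: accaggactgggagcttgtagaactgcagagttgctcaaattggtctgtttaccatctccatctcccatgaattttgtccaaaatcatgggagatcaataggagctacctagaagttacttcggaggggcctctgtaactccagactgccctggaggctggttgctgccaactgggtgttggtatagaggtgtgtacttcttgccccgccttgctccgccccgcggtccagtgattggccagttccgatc
Adam17, chr12:21373633-21373882, minus strand: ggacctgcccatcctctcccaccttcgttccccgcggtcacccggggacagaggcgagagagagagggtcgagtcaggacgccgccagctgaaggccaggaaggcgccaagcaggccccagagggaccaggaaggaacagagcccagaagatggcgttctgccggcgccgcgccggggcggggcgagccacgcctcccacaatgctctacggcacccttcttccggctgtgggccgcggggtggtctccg
Only the downstream window of Mmp12 and the window of Mmp13 held the AP-1 letters, out of the 10 windows. In Mmp12 the match was TGAGTCA, 44 to 38 bases before the start, and in Mmp13 it was TGACTCA, 35 to 29 bases before the start. Mmp13 also held the only TATAAA, 16 to 11 bases before the start. Of 32851 RefSeq windows of the same length, 6.75% held the AP-1 letters and 12.4% held TATAAA. These are letter matches and not measured binding, and a window without them says nothing about the factors.

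By base composition the windows of Adam10, Adam17 and Timp2 had the highest GC content and CpG ratio. GC content was 74.0% for Adam10, 70.4% for Adam17 and 68.0% for Timp2, beside a median of 52.4% over all windows. It was 40.4% for Mmp13, 40.0% and 39.6% for the upstream and downstream windows of Mmp12, and 44.8% for Mmp8. The ratio of observed to expected CpG was 0.866 for Adam10, 0.743 for Adam17 and 0.744 for Timp2, against 0.103 for Mmp13 and 0 and 0.223 for the Mmp12 windows, with a median of 0.374 over all windows. Mmp8 and Timp1 lay nearer that median, at 0.334 and 0.352, as did Adam8 at 0.344. Mmp14, Timp1 and Adam8 had 55.2%, 54.4% and 52.8% GC. With 10 windows this is a description and no test was made.

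Mmp13, Mmp12 and Mmp8 belong to a cluster of 10 Mmp genes that spans 427 kb of chromosome 9, from Mmp13 to Mmp7. Nuclear RNA was detected for 3 of the 10: Mmp13, Mmp12 and Mmp27. Mmp27, which lies next to Mmp8 and is not among the 10 genes described here, reached 8.32 TPM in replicate 1, 13.77 TPM in replicate 2 and 8.95 TPM in replicate 3, a mean of 10.35 ± 2.98 TPM (SD, n = 3). It was thus higher than Mmp8 and Mmp13 in every library, and its high library was replicate 2, in which Mmp12 and Mmp13 were lowest. The stromelysin genes Mmp3 and Mmp10, Mmp1a, Mmp1b, Mmp20 and Mmp7 had at most 1 expected count in every library. Mmp1b overlaps the end of Mmp12 by 1261 bases on the opposite strand and had 0 counts.

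**Figure D4:**
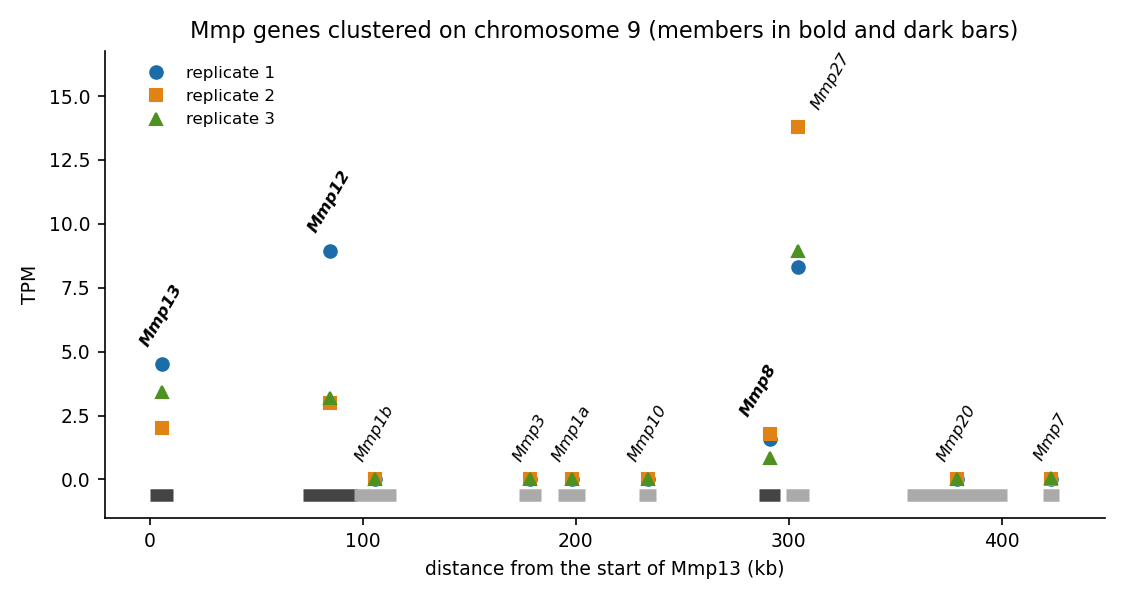
TPM of the 10 Mmp genes clustered on chromosome 9, by distance from the start of Mmp13 in kb, with 1 point for each replicate and grey bars for the gene spans. Only Mmp13, Mmp12, Mmp8 and Mmp27 rise visibly above 0, and Mmp27 reaches 13.77 TPM in replicate 2.

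The rest of the metalloproteinase families was mostly undetected in these nuclei. Of 18 other matrix metalloproteinase genes 2 were detected, Mmp27 and Mmp19 (5.38 ± 0.50 TPM, SD, n = 3). Of 25 other ADAM genes 6 were detected, led by Adam15 at 66.6 ± 16.2 TPM, Adam9 at 40.0 ± 2.37 TPM and Adam33 at 17.2 ± 5.24 TPM, with Adam19 the lowest at 1.84 ± 0.641 TPM. The ranges of Adam9 and Adam17 over the libraries overlapped, as did those of Adam15 and Adam8. Of 19 ADAMTS genes, the secreted relatives with thrombospondin repeats, 1 was detected, Adamts10 at 7.99 ± 1.69 TPM. Of 5 other inhibitors, Timp3, Timp4, Reck, A2m and Tfpi2, 0 were detected and the highest mean was 0.11 TPM, so Timp2 was the only detected inhibitor gene of the 7 examined.

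RNA of the machinery that matures ADAM10 and ADAM17 was detected in part. Of 12 partner genes 6 were detected. Rhbdf2, which encodes the iRhom2 carrier that brings ADAM17 to the cell surface in macrophages, had 26.75 ± 3.41 TPM (SD, n = 3). Furin, a protease that removes propeptides, had 22.1 ± 3.29 TPM, and Tspan14, a tetraspanin partner of ADAM10, had 18.4 ± 2.33 TPM. The lowest detected partner was Tspan17 at 4.31 ± 0.497 TPM.

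Of 20 genes for proteins that ADAM10 or ADAM17 are known to shed, 17 were detected, with a list median of 41.9 TPM. The highest were the endocytic receptor Lrp1 at 282.6 ± 31.1 TPM, the growth factor receptor Csf1r at 254.7 ± 47.7 TPM and the tumour necrosis factor receptor Tnfrsf1b at 180.1 ± 23.2 TPM (SD, n = 3). The lowest detected was the adhesion molecule Vcam1 at 3.01 ± 1.16 TPM. Of 8 genes of the plasminogen system and metalloproteinase partners 4 were detected: Bsg, an inducer of metalloproteinases, at 40.6 ± 4.66 TPM, the urokinase gene Plau at 17.4 ± 5.58 TPM, Lcn2, whose product binds MMP9, at 4.77 ± 3.50 TPM, and the urokinase receptor Plaur at 1.99 ± 0.613 TPM. In each of these 7 lists 0 genes passed as higher and 0 as lower in the filtered edgeR comparisons of a library with the other 2, against the background of 0.202%, 0% and 0.00697% already given; of the other inhibitors 0 passed the filter on low counts. Without that filter 3 genes of these lists passed, named after their values were seen, against the 1.44% and 0.662% given for that fit. Tnf, the classic ADAM17 substrate, was lower in replicate 2, with a log2 difference of -1.01 ± 0.30 (SE; edgeR adjusted p 0.0484). The receptor gene Axl was higher in replicate 3, by 0.98 ± 0.27 (edgeR adjusted p 0.0429), as was Lcn2, by 1.87 ± 0.40 (edgeR adjusted p 0.000761).

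**Figure D5:**
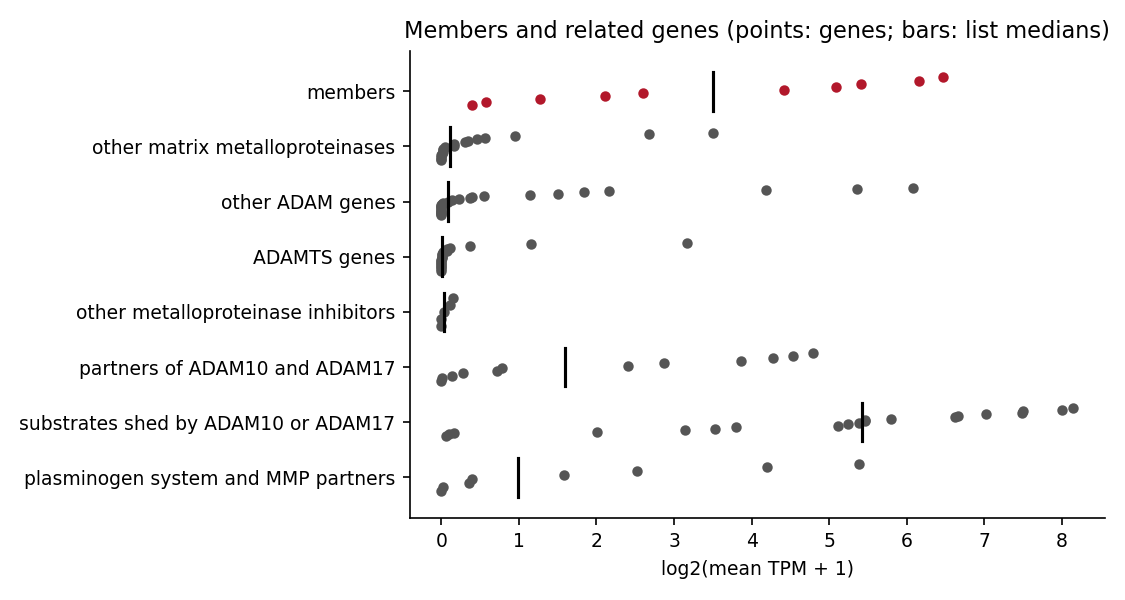
log2(mean TPM + 1) of the 10 genes (red) and of the 7 lists of related genes (grey), with 1 point for each gene and a bar at each list's median. The substrate list has the highest median and the other inhibitors lie at the low end.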

How the data were processed

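Total RNA from nuclei was sequenced after ribosomal RNA depletion, and 3 libraries of 1 group were analysed. Gene and transcript tables with the columns of RSEM were made by the authors from reads aligned to mm10 transcripts of GENCODE M21, per the file headers. Tool names and versions are not given in the sources used for this work. The deposited expected counts are estimates that the authors did not normalise. The deposited TPM values were scaled by the authors per length and library, and the deposited FPKM values per length and depth. A second deposited transcript table in kallisto format gave estimated counts and TPM, which were summed per gene. Reads from introns outside annotated transcripts enter none of these values, and TPM is a share of a fixed sum, so each level also depends on the rest of its library.

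Rows outside the annotation (26345) held 0.827% of the counts of replicate 1, 0.275% of replicate 2 and 0.0547% of replicate 3 and were left out. The 10 genes and the lists of related genes were chosen with earlier results of these data known. All 10 genes are named, and from each list the 3 highest detected genes and the lowest. Differences between genes were taken within libraries on log2(TPM + 1), with exact two-sided sign-flip tests. Expected counts were rounded and tested with edgeR 4.0.16 (filterByExpr, TMM, quasi-likelihood test, adjusted p threshold 0.05) and DESeq2 1.42.0, both first tested on simulated data for 14350 genes. In that simulation both tools missed most genes set to a 2-fold change and found most of those set to a 4-fold change. A gene that was not called can thus still differ by about 2-fold. The changed genes were drawn from those with a higher mean count than Mmp9 and Timp1, and their spread followed the trend over all genes. For genes with few counts, or with a spread above that trend, the simulation gives no such figure. The software was R 4.3.3 and Python 3.11.15 with scipy 1.17.1, matplotlib 3.10.9, numpy 2.4.6 and pandas 2.3.3. Alternatives covered the unit, quantification, pseudocount, filters, tool, normalization and the omission of each replicate.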

Additional observations from a re-analysis of the deposited data

How the results depend on the processing

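Mmp9 minus Timp1 changed sign: it was -0.18 (log2), against 0.31 on expected counts scaled to library totals and 0.052 without replicate 3; both genes rest on few counts. Its values without each replicate ran from -0.35 to 0.052, those of Mmp14 minus Timp2 from 1.10 to 1.72, those of Mmp12 minus Timp1 from 1.43 to 2.18 and those of Adam17 minus Adam10 from 0.89 to 1.09. Over the other settings Mmp14 minus Timp2 ran from 0.84 to 1.43, Mmp12 minus Timp1 from 1.00 on kallisto-format TPM to 2.98 with a pseudocount of 0.1, and Adam17 minus Adam10 from 0.89 to 1.06. Detected genes numbered 7, and 7 to 8 without a replicate, 9 when TPM was rescaled to the sum of nuclear-encoded protein-coding genes and 5 on kallisto-format TPM. For replicate 1, 29 genes were called by edgeR, 72 by DESeq2, 2 with DESeq2 size factors, 0 without a filter on low counts and 49 with the robust fit, which was chosen after seeing the data; of the 10 genes DESeq2 and the robust fit each called 1, Adam8. For replicate 2, 0 genes were called by edgeR, 11 by DESeq2 and 349 without a filter, 3 of them among the 10. For replicate 3 the counts were 1 by edgeR, 34 by DESeq2 and 161 without a filter. Genes of the 10 with over 10% of TPM in retained-intron transcripts numbered 4, Mmp9 included, 3 to 4 without a replicate, and 1 on expected counts, which weight long transcripts more. The cause of these changes was not tested. Percentiles were lower on kallisto-format TPM, at 92.5 for Mmp14, 53.3 for Adam10 and 0.0729 for Mmp12. No paired analysis was possible because the libraries form 1 group, and leaving out a replicate from the library comparisons leaves no residual degrees of freedom. With 3 libraries from 1 group, 9, 6 and 15 counts of Timp1 and 59, 8 and 4 of Mmp9 set the limit for these genes.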
